A study of Mus musculus with 6 samples.

Results

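The complement genes described here are components and regulators of the complement system measured in cultured mouse lymphatic endothelial cells (LEC), taken from tumours or from normal skin. The list held 9 genes, C1qa, C1qb, C1qc, C1ra, C4b, C3, Cfb, Serping1 and Cd55. A gene was included where at least 1 probe set of the array is annotated to it and to no other gene, and its value is that of its probe set with the highest mean over the 6 arrays. This gave 7 of the 9 genes, out of 18193 genes on the array with such a probe set. C4b shares its only listed probe set with C4a, and C3 was not analysed here.

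Complement is a cascade of plasma and tissue proteins that tags particles for uptake and can lyse cells. In the classical pathway C1q, made of the A, B and C chains, binds a surface and activates the proteases C1r and C1s, which cleave C4 and C2. In the alternative pathway factor B joins cleaved C3 to form the enzyme that amplifies the cascade. Among the regulators, the C1 inhibitor blocks C1r and C1s of the classical pathway, and the decay-accelerating factor CD55 limits both pathways. C1q is made largely by macrophages and dendritic cells, and many other components are made by liver, fibroblasts and endothelium, with several of them induced by interferons.

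Tumour LEC (3 arrays) came from C57BL/6 mice carrying T241/VEGF-C/GFP fibrosarcomas, that is, tumours of a mouse fibrosarcoma line that bears the lymphatic growth factor VEGF-C and a green fluorescent protein. Normal LEC (3 arrays) came from the dermis of tail skin of female C57BL/6 mice aged 8 weeks, with no tumour named. The labels give neither the age or sex of the tumour-bearing mice nor the number of animals pooled for an array, and the tumour arrays are titled as tumour cells although their source is given as LEC. Both kinds of cell were grown in an endothelial medium on gelatin, and selection with antibodies to LYVE-1 on magnetic beads is described for both, so the values are those of cultured cells and not of vessels in place. Nothing says that replicates were separate cultures or animals, so a p-value here reflects only how much these particular arrays vary. In such bulk samples fewer cells of a type and less RNA per cell cannot be told apart.

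Lymphatic markers were bright on all arrays. Lyve1, the selected receptor, read 14.77, 14.11 and 14.91 on the log2 scale in tumour LEC, against 14.02, 13.65 and 14.32 in normal LEC. Prox1, the regulator of lymphatic identity, read 8.92, 7.77 and 8.47 in tumour LEC, against 7.93, 7.73 and 8.30 in normal LEC. Of 9 endothelial markers 8 had a higher mean in tumour LEC, beside 6879 of 12955 genes tested. Their median difference was 1.44, beside 0.03 over all genes, and 7 of the 9 were lowest in normal replicate 1. Cdh5 read 11.52, 11.64 and 11.65 in tumour LEC, against 9.62, 10.79 and 11.37 in normal LEC. Pecam1 read 8.86, 8.08 and 8.59 in tumour LEC, against 5.59, 7.39 and 8.22 in normal LEC. Arrays stood apart from others of their own group in the markers of other cells. Of 11 macrophage and leukocyte markers 9 were highest in tumour replicate 1, and all 8 fibroblast markers were highest in normal replicate 1. All 15 measured interferon-response genes were highest in tumour replicate 1 and lowest in normal replicate 2. Over all genes tested, 20.3% were highest in tumour replicate 1 and 13.9% were lowest in normal replicate 2. Normal replicate 1 was the highest array for 16.6% of all genes tested and the lowest for 19.3%. Among 6 measured keratinocyte markers, 4 never rose above background, Krt14 being one of these. Krt5 (3.73 to 4.46) and Krt10 (6.76 to 7.17) exceeded background on each array of both groups. Here background means at or below the brightest of 27 probe sets for absent bacterial RNA on the same array, which lay between 3.40 and 3.71.

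Between tumour and normal LEC none of the 7 complement genes was called (limma, adjusted p under 0.05 over 12955 genes), where 0.216% of all genes were called, 0.0463% higher and 0.17% lower. At an unadjusted p under 0.05 the count was also 0 of 7, where 15.5% of all genes passed. For none of the 7 were the 3 tumour arrays clear of the 3 normal arrays, against 32.4% of all genes. All 7 means were higher in tumour LEC, by 0.08 to 2.01 log2 units with a median of 1.02, beside a median of 0.03 over all genes tested, 6879 of 12955 of which were higher. The sign turned for C1qa and C1qc without tumour replicate 1, and for Cd55 when tumour replicate 1 (-0.080) or normal replicate 2 (-0.35) was left out. Behind these means lay different patterns: C1q chains that were highest on a single tumour array, C1ra and Cfb that were highest in tumour replicate 3, Serping1 that was high on all tumour arrays and on 1 normal array, and Cd55, whose tumour arrays all lay within the range of the normal arrays.

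**Figure D1:**
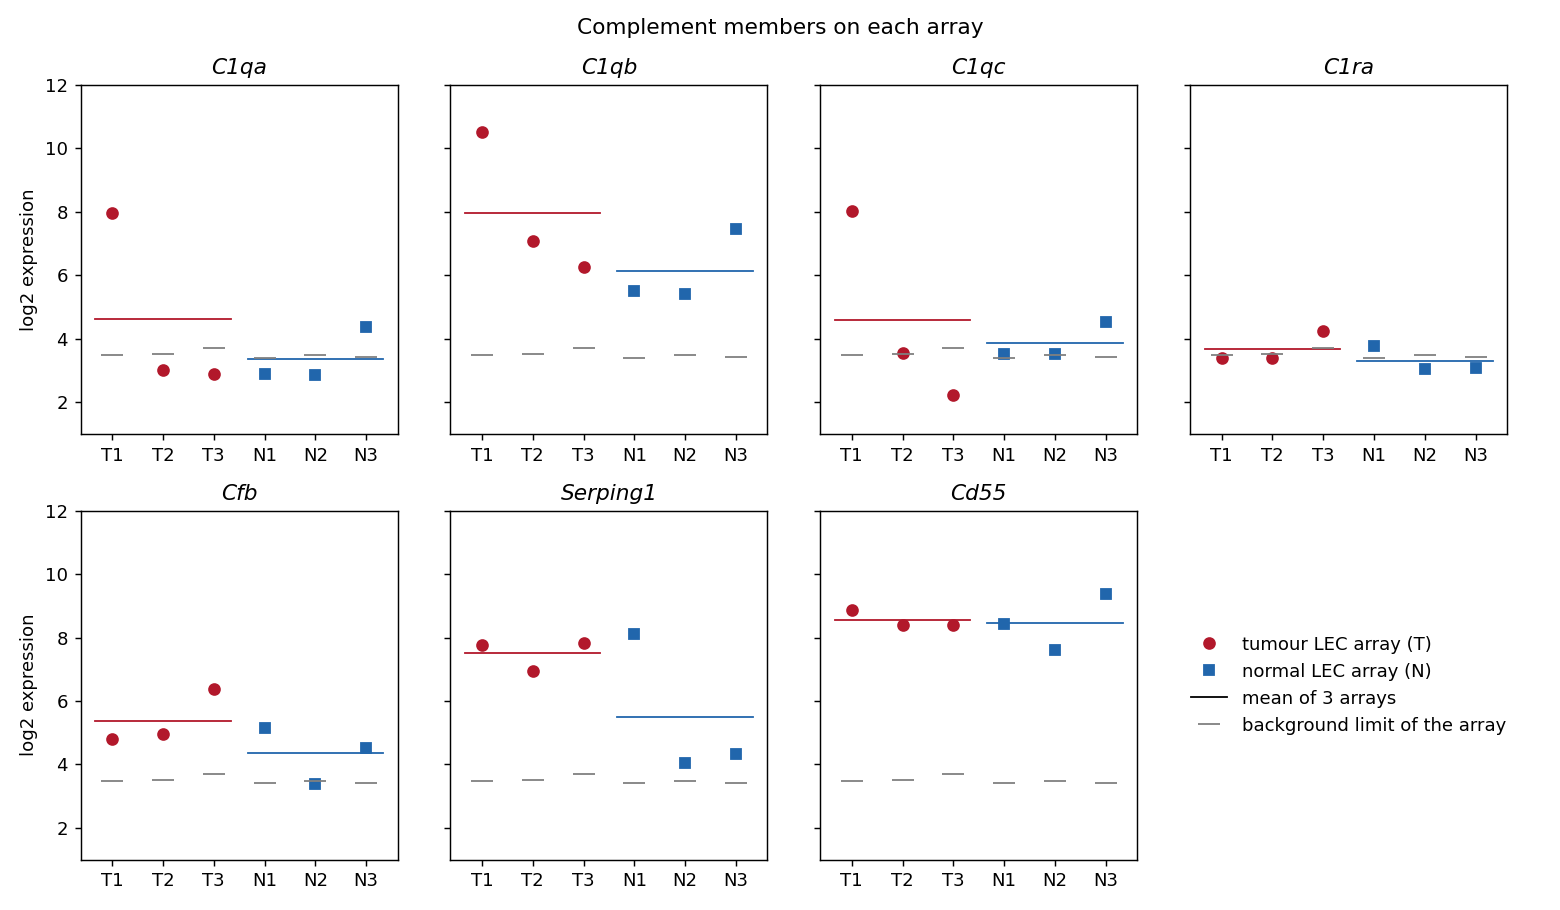
Log2 expression of the 7 complement genes on each of 3 tumour LEC arrays (circles, T1 to T3) and 3 normal LEC arrays (squares, N1 to N3), with the mean of each group as a line and the background limit of each array as a grey dash. The C1q chains stand high on T1, and Serping1 reads 7.76, 6.94 and 7.83 on the tumour arrays and 8.11 on N1 but 4.06 and 4.33 on N2 and N3.

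The 3 chains of C1q, the recognition molecule of the classical pathway, are encoded side by side in the order C1qb, C1qc, C1qa among protein-coding genes of the RefSeq mouse assembly GRCm38.p6. No promoter sequence of C1qa was available here. The promoters of C1qb and C1qc are given first. The motif searched in them is the core bound by PU.1, a transcription factor of macrophages and other myeloid cells. Each is the RefSeq sequence of GRCm38.p6 in the direction of the gene, 250 bases before and 50 after the start of the transcript, on the minus strand at chr4:136886151-136886450 for C1qb and chr4:136892865-136893164 for C1qc. Capitals mark GAGGAA on either strand.
C1qb: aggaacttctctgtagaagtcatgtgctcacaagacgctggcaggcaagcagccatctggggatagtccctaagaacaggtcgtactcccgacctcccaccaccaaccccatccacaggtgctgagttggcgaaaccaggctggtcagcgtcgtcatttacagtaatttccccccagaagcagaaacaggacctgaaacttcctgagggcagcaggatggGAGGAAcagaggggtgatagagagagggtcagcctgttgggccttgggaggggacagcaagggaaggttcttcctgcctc
C1qc: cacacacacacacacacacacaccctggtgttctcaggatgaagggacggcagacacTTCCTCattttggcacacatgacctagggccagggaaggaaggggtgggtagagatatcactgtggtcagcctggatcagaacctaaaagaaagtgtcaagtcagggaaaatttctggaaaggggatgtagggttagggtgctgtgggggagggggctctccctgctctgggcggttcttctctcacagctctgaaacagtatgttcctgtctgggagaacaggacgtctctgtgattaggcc
The C1qb window holds the motif once, on the strand of the gene from base -30, and the C1qc window once, on the opposite strand from base -193. Of 32851 mouse promoter windows of the same length 28.3% hold it, so a match is common. A second motif, TTCNNNGAA, which is linked to the response to interferon and reads the same on both strands, is in neither, and 8.3% of the windows hold it. Of the 9 listed genes 5 have a window. That of C1ra holds TTCNNNGAA once, from base 33, and GAGGAA once, on the opposite strand from base 45, and that of Cd55 holds neither.

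C1qa, the A chain, read 7.95, 3.00 and 2.90 in tumour replicates 1, 2 and 3, against 2.89, 2.85 and 4.37 in normal replicates 1, 2 and 3. It was above background only in tumour replicate 1 and normal replicate 3, and the groups overlapped. The mean difference was 1.25 (SE 1.47, 95% interval -2.42 to 4.91, adjusted p = 0.660, limma).

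C1qc, the C chain, read 8.03, 3.54 and 2.24 in tumour LEC, against 3.52, 3.52 and 4.51 in normal LEC. Tumour replicate 1 was again the highest array and normal replicate 3 the next, and the other 4 were at background or at most 0.123 above it. The difference was 0.75 (SE 1.51, 95% interval -3.01 to 4.50, adjusted p = 0.798, limma).

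C1qb, the B chain, had 3 probe sets. The brightest, 1437726_x_at, read 10.53, 7.08 and 6.25 in tumour LEC, against 5.49, 5.42 and 7.47 in normal LEC, a difference of 1.83 (SE 1.25, 95% interval -1.28 to 4.93, adjusted p = 0.505, limma). Probe set 1434366_x_at gave nearly the same picture, with 9.47, 6.70 and 6.20 in tumour LEC against 5.76, 4.58 and 6.72 in normal LEC. Both names carry the suffix for probes that can cross-hybridize. Probe set 1417063_at, without that suffix, read 8.49, 3.11 and 2.74 in tumour LEC against 2.98, 2.19 and 5.35 in normal LEC, so that 2 arrays of each group were at background where the brighter pair was well above it. All 3 probe sets were highest in tumour replicate 1, and their differences were 1.83, 1.77 and 1.27.

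The place of tumour replicate 1 decided the direction for C1qa and C1qc. Without that array the difference of C1qa was -0.42 (adjusted p = 0.664, limma), that of C1qc -0.97 (adjusted p = 0.406, limma) and that of C1qb 0.54 (adjusted p = 0.692, limma). On the same array the summed level of the 11 macrophage and leukocyte markers was 13.04 (log2 of the sum), the top of a range from 11.09 in tumour LEC, against 11.01 to 12.31 in normal LEC. Ptprc, the leukocyte antigen CD45, read 5.92, 3.06 and 3.13 in tumour LEC against 3.02, 2.96 and 3.36 in normal LEC, and was above background in tumour replicate 1 alone. Csf1r, the receptor of the macrophage growth factor CSF1, read 8.58, 3.77 and 3.88 in tumour LEC against 7.20, 5.25 and 6.82 in normal LEC. Its order differs from that of C1q, since normal replicate 1 came second. Cd68, a lysosomal protein of macrophages, read 10.88, 7.90 and 4.82 in tumour LEC against 8.56, 8.45 and 9.57 in normal LEC. Of the 11 markers only Itgam was at background on all arrays. The part of leukocytes in the C1q values was not tested.

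**Figure D2:**
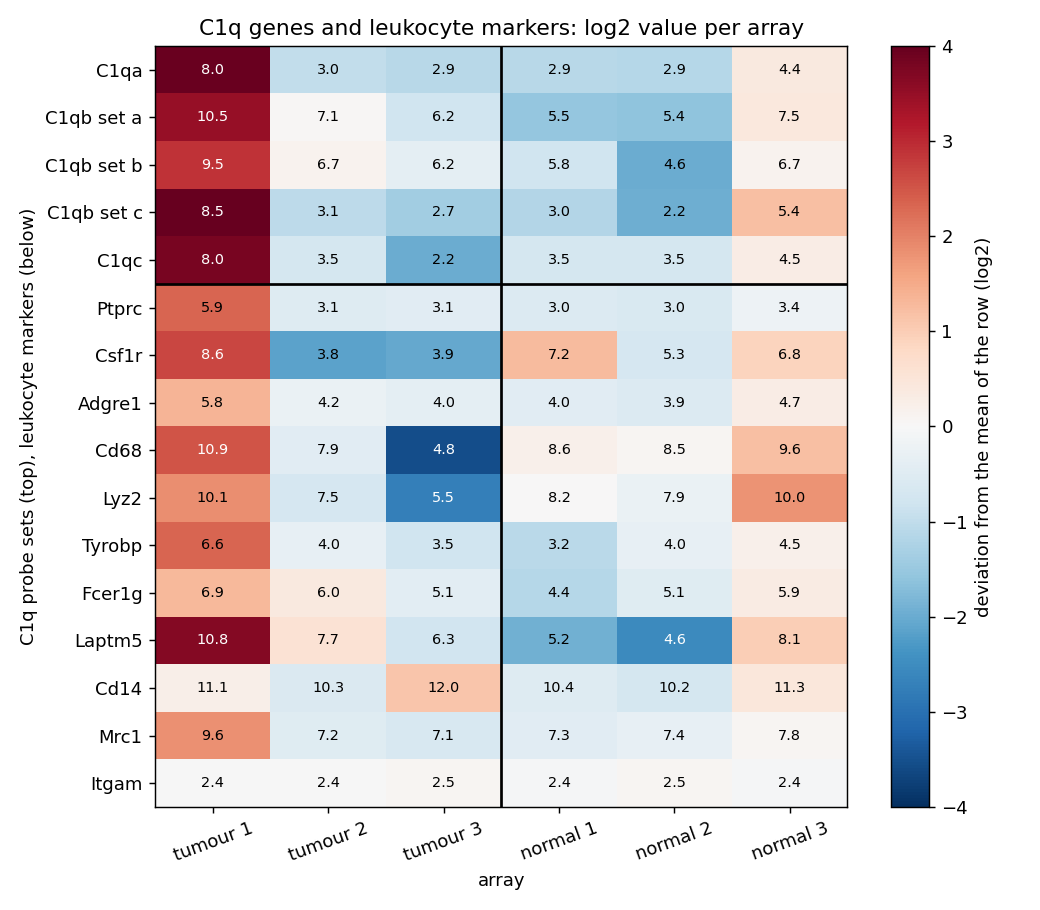
Log2 values (numbers) and their deviation from the mean of the row (colour, clipped at 4 log2 units) for the 5 C1q probe sets, above the line, and 11 macrophage and leukocyte markers, below it, on 3 tumour and 3 normal LEC arrays. C1qb sets a, b and c are its probe sets in order of mean signal. All 5 C1q probe sets and 9 of the 11 markers are highest in tumour replicate 1.

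Across the 6 arrays, which are few and share this 1 high array, the C1q chains correlated with each other at Pearson's r of 0.905 to 0.968. The genes most like C1qa among all those tested were Pla2g7, a secreted phospholipase that inactivates platelet-activating factor (r = 0.998), Rnf152 (0.995) and Mrc1, the macrophage mannose receptor (0.992). Those most like C1qc were Ms4a6b (0.995), Gab3 (0.993) and Hid1 (0.990). Those most like C1qb were Sec62, a subunit of protein translocation into the endoplasmic reticulum (0.993), Sar1b, a GTPase of vesicle export (0.988) and Me3, a mitochondrial malic enzyme (0.988).

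C1ra, which encodes the protease C1r, was dim in both groups. It read 3.40, 3.38 and 4.23 in tumour LEC, against 3.77, 3.05 and 3.08 in normal LEC, and 2 arrays of each group were at background. Only tumour replicate 3 and normal replicate 1 exceeded their limits, and the difference was 0.37 (SE 0.32, 95% interval -0.43 to 1.17, adjusted p = 0.571, limma). It was 0.088 when tumour replicate 3 was left out, 0.24 when normal replicate 2 was and 0.60 when normal replicate 1 was. A second probe set is annotated to both C1ra and C1rb and was assigned to neither. C1s1, for the partner protease C1s and named after its values were seen, was at background on all 3 tumour arrays (2.84, 2.89 and 2.93) and read 4.18, 2.87 and 2.80 in normal LEC, above background in normal replicate 1 alone.

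Cfb, the factor B of the alternative pathway, read 4.80, 4.95 and 6.37 in tumour LEC, against 5.15, 3.38 and 4.52 in normal LEC. It was above background on all arrays but normal replicate 2, and normal replicate 1 lay inside the tumour range. The difference was 1.02 (SE 0.62, 95% interval -0.51 to 2.55, adjusted p = 0.467, limma), and 0.52 without tumour replicate 3 or 0.54 without normal replicate 2. Cfb and C1ra had the same array on top, tumour replicate 3, and correlated at r = 0.914 over the 6 arrays. C1ra was at background on 2 arrays of each group, so its correlations rest on few values above background. The genes most like Cfb were Mon1b (r = 0.983), Zfp938 (0.981) and 0610009L18Rik (0.977), and those most like C1ra were Hexim1 (0.988), BC147527 (0.986) and Dennd1a (0.980).

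Serping1 encodes the C1 inhibitor, a serpin that blocks C1r and C1s. It read 7.76, 6.94 and 7.83 in tumour LEC, against 8.11, 4.06 and 4.33 in normal LEC. All tumour arrays were high, normal replicate 1 was the highest of all 6, and normal replicates 2 and 3 were at least 2.61 log2 units below every other array. The difference was 2.01 (SE 1.13, 95% interval -0.81 to 4.82, adjusted p = 0.444, limma).

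Without normal replicate 1 the difference of Serping1 was 3.31 and it passed the test (adjusted p = 0.0424, limma), with 0.054% of all genes higher and passing in that setting. Without normal replicate 2 the difference was 1.29. The adjusted p was 0.333 to 0.694 in the other 14 settings tried. The summed level of the 8 fibroblast markers spanned 6.82 to 7.24 in tumour LEC, against 15.12, 12.31 and 12.29 in normal LEC, so that normal replicate 1 led. Pdgfra, the mesenchymal receptor for platelet-derived growth factor, read 5.74, 4.87 and 4.66 in tumour LEC and 11.75, 9.48 and 9.13 in normal LEC. The collagen gene Col1a2 was at background on 2 tumour arrays. Serping1 was thus high in tumour LEC where these fibroblast markers were low or at background, and within normal LEC it was highest where they were highest. The part of fibroblasts in the value of normal replicate 1 was not tested. The genes most like Serping1 were Golga2, a Golgi matrix protein (r = 0.985), Cep97 (0.978) and P3h1, a collagen prolyl hydroxylase (0.977).

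Cd55, the membrane-bound decay-accelerating factor that dissociates C3 convertases, read 8.87, 8.40 and 8.38 in tumour LEC, against 8.42, 7.62 and 9.38 in normal LEC, by its brightest probe set. The tumour arrays lay within the normal range, and the difference was 0.08 (SE 0.46, 95% interval -1.06 to 1.22, adjusted p = 0.933, limma). Its other probe sets differed by 0.53 (1460242_at) and -0.10 (1443906_at), and all 3 were highest in normal replicate 3. The interval leaves room for a change of about 2.33-fold upwards or to 0.479 of the normal level. A further probe set, shared with Cd55b, was assigned to neither gene. The genes most like Cd55 were Ces2e (r = 0.980), Stau2 (0.959) and Fggy (0.951).

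Normal replicate 2 was the lowest array for 6 of the 7 complement genes, all but C1qc, beside 13.9% of all genes. For C1qa and C1ra that rank was among values at background, so it says little. C1qa read 2.85 there against 2.89 in normal replicate 1, and C1ra 3.05 against 3.08 in normal replicate 3. C1qb read 5.42 in normal replicate 2, close to 5.49 in normal replicate 1. The interferon-response genes were also lowest in normal replicate 2. Their summed level was 15.43 to 16.12 in tumour LEC, against 14.56, 13.26 and 14.72 in normal LEC. Among these genes Psmb8, an immunoproteasome subunit, read 10.44, 9.93 and 9.81 in tumour LEC against 7.45, 4.85 and 7.61 in normal LEC. Irf1, a transcription factor induced by interferon, read 8.44, 7.99 and 7.91 in tumour LEC against 7.99, 7.42 and 8.12 in normal LEC. H2-D1, an MHC class I heavy chain, read 13.44, 12.86 and 13.37 in tumour LEC and 11.34, 10.59 and 11.08 in normal LEC, with no overlap. Like the interferon-response genes, the 3 C1q chains were highest in tumour replicate 1. The other complement genes had a different array on top, tumour replicate 3 for C1ra and Cfb, normal replicate 1 for Serping1 and normal replicate 3 for Cd55. The part of interferon in the complement values was not tested.

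A wider list of 53 other complement genes gave no call either. It had 42 genes with a probe set of their own, of which 25 were at background on all 6 arrays and 23 were bright enough on average to be tested. None of the 23 passed (limma, adjusted p under 0.05). At an unadjusted p under 0.05 there were 3 higher and 2 lower in tumour LEC, where 6.66% and 8.83% of all genes were higher and lower, and the median difference was -0.07. All 6 measured genes of the terminal pathway, which builds the membrane attack complex, were at background throughout. Colec12, a scavenger receptor of the collectin family, differed by -0.90 (SE 0.91; leaving out tumour replicate 3 gave -0.096, and leaving out tumour replicate 1 gave -1.70) and was the one measured recognition gene above background on every array of a group.

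**Figure D3:**
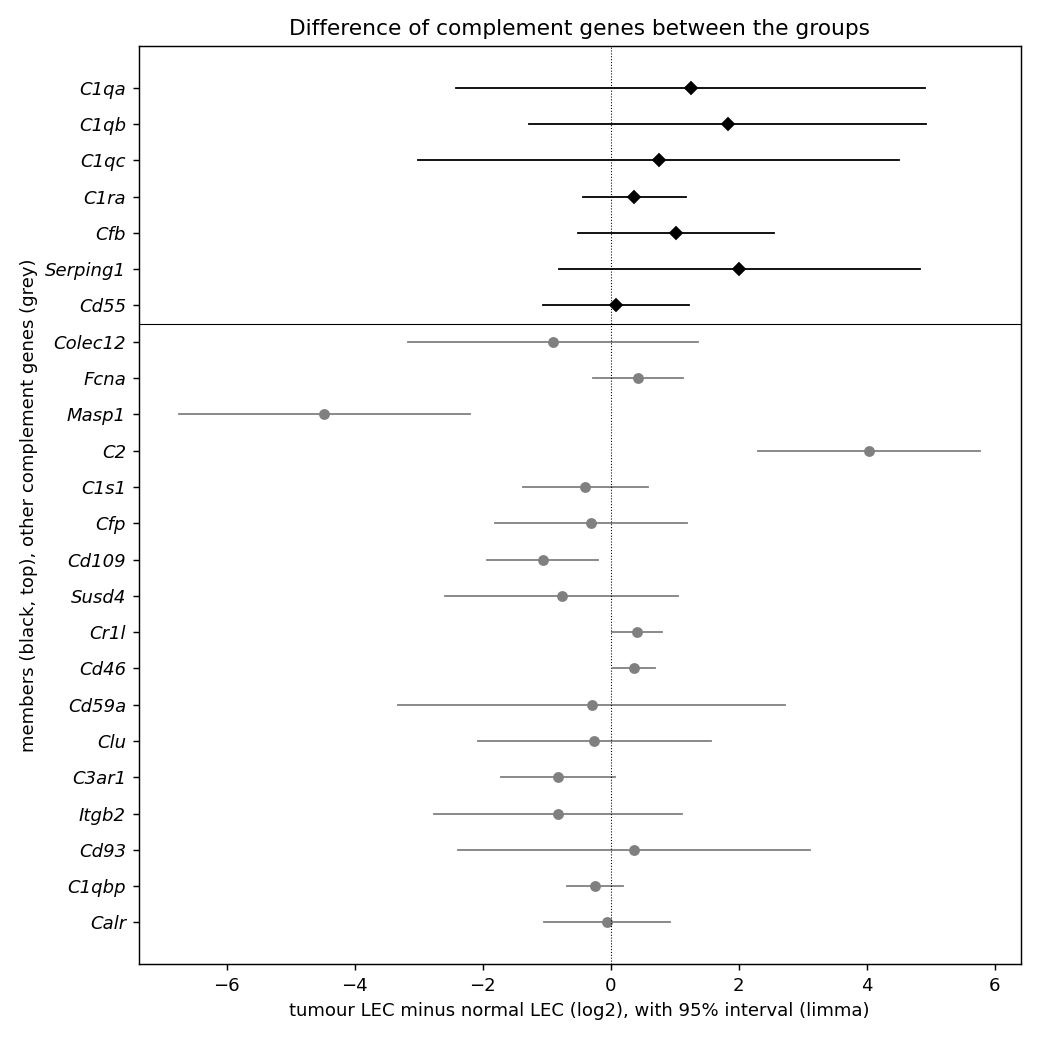
Difference between tumour and normal LEC (log2, points) with its 95% interval from limma (lines) for the 7 complement genes (black) and the 17 other tested complement genes that were above background on some array (grey). All 7 black intervals span 0, and C2 at 4.04 and Masp1 at -4.48 lie farthest from it.

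The largest differences among the other complement genes were in early components. C2, the protease component of the classical and lectin pathways, whose gene lies next to Cfb among protein-coding genes, read 11.54, 9.81 and 9.36 in tumour LEC, against 6.85, 5.27 and 6.49 in normal LEC. The groups did not overlap, as for 20.9% of all genes in this direction, and the difference of 4.04 (SE 0.70, 95% interval 2.30 to 5.77), or 16.4-fold, did not pass over all genes (adjusted p = 0.0950, limma). Its 3 probe sets differed by 4.04, 4.14 and 3.46. Those with 4.04, the one used, and 4.14 carry the suffix for probes that can cross-hybridize. Without such probe sets the difference of C2 was 3.46 (adjusted p = 0.169, limma). With array weights, estimated from the spread of these same arrays, C2 passed (adjusted p = 0.0358, limma), where 0.965% of all genes were higher and passed. Tumour replicate 2 then had a weight of 3.72, against 0.45 and 0.31 for tumour replicates 1 and 3, so that it dominated the tumour group. The adjusted p of C2 over all settings was 0.0358 to 0.247. Cfb and C2, though neighbours, had different arrays on top, tumour replicate 3 for Cfb and tumour replicate 1 for C2.

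Masp1, a protease of the lectin pathway, went the other way by its brightest probe set. It read 4.28, 3.21 and 3.77 in tumour LEC, against 10.18, 6.67 and 7.83 in normal LEC, with tumour replicate 2 at background. The groups did not overlap, as for 11.6% of all genes in this direction, and the difference was -4.48 (SE 0.91, adjusted p = 0.126, limma), or at least 20.7-fold lower with the background value raised to its limit. Like the fibroblast markers, Masp1 was highest in normal replicate 1, and their part in its values was not tested. Its probe sets disagreed: a second one, 1438602_s_at, differed by -4.98, whereas 1438603_x_at, 1419677_at and 1455346_at differed by -0.51, 0.10 and 0.05, the last at background on all arrays. The pair with the large differences carries a suffix for probes that can match several transcripts. Cfp or properdin, which stabilizes the alternative pathway enzyme, differed by -0.31 (SE 0.60).

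**Figure D4:**
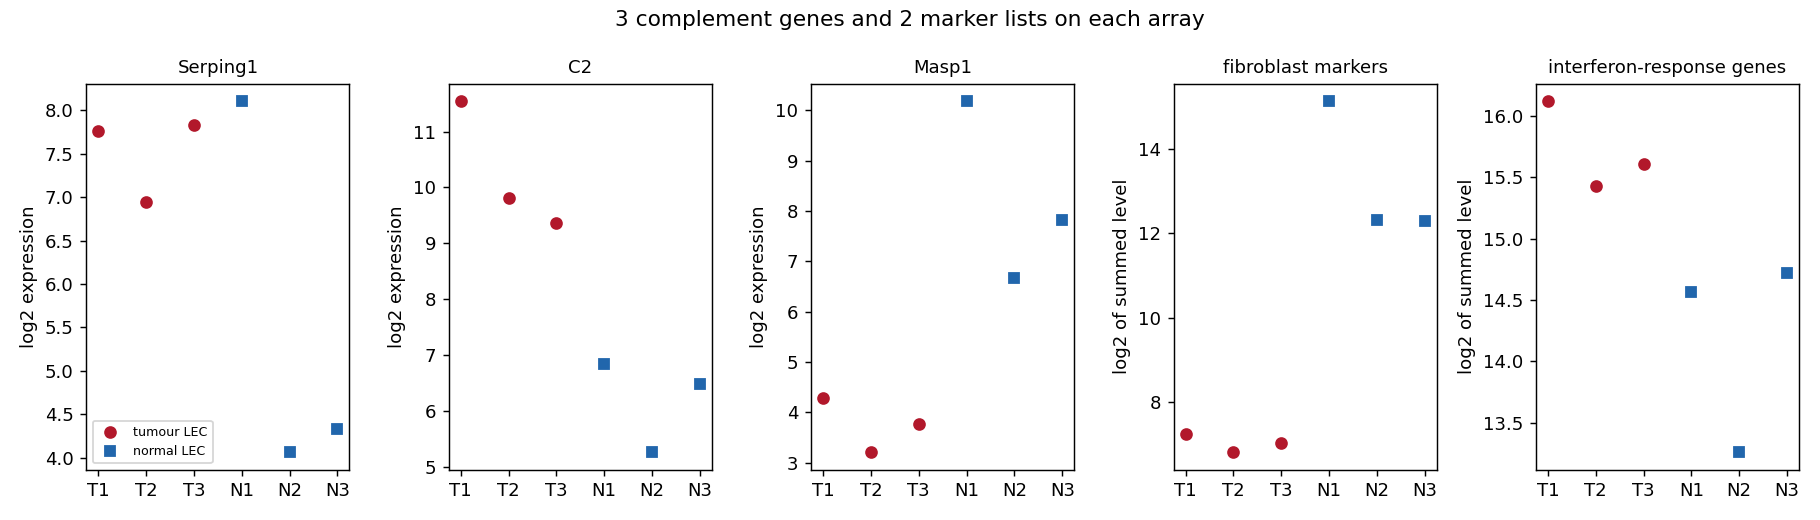
Log2 expression of Serping1, C2 and Masp1, and log2 of the summed level of 8 fibroblast markers and 15 interferon-response genes, on each tumour LEC array (circles, T1 to T3) and normal LEC array (squares, N1 to N3). Each panel has its own axis that does not start at 0. The tumour and normal arrays overlap for Serping1 and do not overlap in the other 4 panels.

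Regulators other than the members differed by smaller amounts. Cr1l, the rodent C3 regulator Crry, read 11.00, 11.00 and 11.41 in tumour LEC, against 10.86, 10.65 and 10.69 in normal LEC, a difference of 0.41 (SE 0.16, adjusted p = 0.302, limma) without overlap. Cd109, a membrane protein related to C3 and C4 that was only listed here with the regulators, differed by -1.07 (SE 0.35, adjusted p = 0.254, limma). Its groups overlapped, with 9.33 in tumour replicate 1 and 9.31 in normal replicate 2. Susd4, a membrane protein with complement control domains, differed by -0.77 (SE 0.73). Leaving out normal replicate 3 gave -0.21 for Susd4, and leaving out normal replicate 1 gave -1.52. Among receptors C3ar1, which binds the C3a fragment, was at background on 2 tumour arrays and read 3.90, 3.91 and 4.40 in normal LEC, and its difference was -0.83 (SE 0.36, adjusted p = 0.345, limma). Itgb2, the beta chain of the leukocyte complement receptors, differed by -0.82 (SE 0.78; leaving out tumour replicate 2 gave -0.40, and leaving out tumour replicate 1 gave -1.62), with 6.49 in tumour replicate 1 against 4.03 and 4.13 in tumour replicates 2 and 3. Cd93, once described as a C1q receptor, differed by 0.36 (SE 1.11).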

How the data were processed

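RNA of cultured LEC was hybridised to Affymetrix arrays, 3 for tumour and 3 for normal LEC, after two-cycle labelling of 50 ng, per the labels' protocols. Each deposited value is a log2 expression level of a probe set. RMA and GCRMA are named per the submitters' processing notes, with no version, and the sources used here do not say which one gave the values. GCRMA pulls weak signals down to a floor, which makes small differences near background unreliable. Gene names came from GEO's platform annotation, updated by Entrez identifier (RefSeq, GRCm38.p6). The 45101 probe sets comprised 34945 with 1 gene, 932 with several genes, 64 controls and 9160 that are unnamed here. Probe sets with a mean above the 40th percentile of non-control probe sets (2.71) were kept, and 1 probe set per gene gave 12955 genes. The groups were compared with limma 3.58.1 in R 4.3.3 (lmFit and eBayes), two-sided, with Benjamini-Hochberg adjustment over all genes. No exact permutation test was made, since its smallest p for 3 against 3 arrays is 0.1. The steps were tested on simulated data. The members and lists were chosen with earlier results of these data known. The text names the members, of the other complement genes the 3 per role with the largest difference among those above background on every array of a group, fixed markers, and the 3 genes most like each member by Pearson's r. The summed level of a list is the log2 of the sum of linear values. Depth does not apply to arrays, and their number limits the precision. The alternatives were filters, normalizations, variance models, array weights, choices of probe sets, a replicate block and leaving out each array.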

Additional observations from a re-analysis of the deposited data

How the results depend on the processing

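The number of complement members that passed was 0 in 14 of 15 alternative settings and 0 to 1 when single arrays were left out, the 1 being Serping1 without normal replicate 1. Of 103 member values under the alternatives 7 changed sign: C1qa (-0.012), C1qc (-0.042) and Cd55 (-0.13) with array weights, and the same genes when an array was left out, with ranges of -0.42 to 2.10 for C1qa, -0.97 to 1.93 for C1qc and -0.35 to 0.53 for Cd55. C1qa and C1ra did not pass the 60th percentile filter. Of the other complement genes, Masp1 was 0.10 without probe sets prone to cross-hybridization, a setting that replaces its probe set, and Cfp was 0.42 with array weights, 0.11 with the mean of probe sets and -0.76 to 0.37 with single arrays left out. With single arrays left out, Cd93 ranged from -0.63 to 1.18, C3ar1 from -1.18 to -0.54 and Cr1l from 0.27 to 0.48. None of the wider list passed except 1 gene, C2, with array weights. The count over all genes, 28 as reported (6 higher, 22 lower), was 35 with quantile normalization (11 higher, 24 lower), 10 with no filter, 97 with the 60th percentile filter, 385 with array weights, 46 with the replicate block and 4 (without tumour replicate 3) to 82 (without normal replicate 1) with single arrays left out. The cause of these changes was not tested. The samples of both groups share replicate numbers, and deviations of same-numbered arrays correlated at 0.19, 0.33 and -0.004. For replicates 1 and 2 the same-numbered array was the best match, whereas normal replicate 3 correlated best with tumour replicate 1 (0.13). These values do not settle whether the numbers mark pairs, and they were not taken as pairs in the main comparison. The block changed the call of no complement gene named here.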
